A study of Mus musculus with 29 samples.

Results

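Nr4a1, Dusp2 and Hilpda were followed in neutrophils of mouse brain and blood after stroke, and in the other cell types of the same libraries. The 3 genes were chosen by their log2 fold change between brain and blood neutrophils 2 days after stroke, which was among the largest in an earlier analysis of these data. They are 3 of 27827 genes in any of the deposited tables, of 15730 present in the tables of both young brain and blood, and of 2736 that could be tested in neutrophils of both tissues. All 3 passed the filter on low counts in the neutrophil fit. Single cells were profiled by Drop-seq, a droplet method that tags transcripts with a barcode per cell, in 29 libraries of C57BL/6J mice. Stroke was produced by blocking the middle cerebral artery for a limited time, which cuts off and then restores the blood flow to part of 1 hemisphere. Young males aged 8 to 10 weeks supplied 12 brain libraries (4 each from sham operation at day 2, stroke at day 2 and stroke at day 14) and 11 blood libraries (4, 4 and 3 of the same groups). Aged mice of 17 to 20 months supplied 6 brain libraries: a male and a female sham at day 2, 1 male and 2 female strokes at day 2 and 1 female stroke at day 14. Each brain library pooled 4 to 5 hemispheres that were digested with papain, and cells with high CD45, microglia and endothelial cells were sorted; each blood library pooled 2 mice after red cell lysis. Actinomycin D, which blocks transcription, was present in both preparations. Brain and blood cells were thus prepared in different ways, so tissue and preparation cannot be told apart in any comparison of the tissues. No sham library was made at day 14, so stroke and time since surgery cannot be told apart at that time.

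Nr4a1 (Nur77) is an orphan nuclear receptor and transcription factor of the immediate early class, transcribed within a short time of receptor signalling or stress in many cells. Dusp2 (PAC-1) is a nuclear dual-specificity phosphatase that removes phosphate from MAP kinases and is itself induced by the MAP kinase pathway in activated leukocytes. Hilpda is a small lipid droplet protein, induced by hypoxia-inducible factors and by lipid loading, that inhibits the triglyceride lipase ATGL (Pnpla2). Neutrophils are short-lived granulocytes that leave the bone marrow, circulate in blood and enter injured brain tissue early after an ischemic stroke.

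All 3 genes are protein coding and lie on the plus strand of the mouse genome (build GRCm38, GENCODE vM21): Nr4a1 (ENSMUSG00000023034.7) at chr15:101254269-101274795, Dusp2 (ENSMUSG00000027368.6) at chr2:127336159-127338376 and Hilpda (ENSMUSG00000043421.8) at chr6:29272488-29275446. The 250 bases before a RefSeq start site of each are shown as a description (RefSeq, GRCm38.p6, plus strand, 5′ to 3′). That the 3 genes differ together between tissues follows from how they were chosen. Capitals mark matches, on either strand, to the cores of the hypoxia response element (ACGTG and GCGTG) and to the short form of the cAMP response element (TGACG).
Nr4a1, chr15:101266596-101266845: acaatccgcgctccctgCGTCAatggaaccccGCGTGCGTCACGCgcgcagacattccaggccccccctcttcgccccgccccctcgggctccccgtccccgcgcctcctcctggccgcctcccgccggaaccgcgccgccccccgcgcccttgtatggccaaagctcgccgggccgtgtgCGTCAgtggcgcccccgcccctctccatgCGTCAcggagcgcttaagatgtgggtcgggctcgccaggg
Dusp2, chr2:127335909-127336158: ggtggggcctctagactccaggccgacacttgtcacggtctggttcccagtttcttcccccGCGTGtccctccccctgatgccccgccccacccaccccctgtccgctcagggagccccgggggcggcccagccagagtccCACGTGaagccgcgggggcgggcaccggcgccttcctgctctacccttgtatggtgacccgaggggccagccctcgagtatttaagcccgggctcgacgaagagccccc
Hilpda, chr6:29272238-29272487: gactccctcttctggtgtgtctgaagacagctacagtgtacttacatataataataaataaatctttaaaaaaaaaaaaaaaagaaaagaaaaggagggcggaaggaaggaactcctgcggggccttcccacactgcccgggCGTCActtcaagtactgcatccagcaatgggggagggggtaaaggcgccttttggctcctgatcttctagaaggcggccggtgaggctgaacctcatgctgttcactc
The Nr4a1 window lies inside the annotated gene, between exons, before a start site downstream of the first annotated one. It holds 4 TGACG matches, beginning 233, 213, 69 and 40 bases before the start, and 2 GCGTG matches at 218 and 210 bases, the last of which overlaps a TGACG match. In the Dusp2 window GCGTG stands 189 bases before the start, and ACGTG is read on both strands of 1 overlapping site at 109 and 108 bases. The Hilpda window holds 1 TGACG match at 108 bases, and a window before the second Hilpda start, which overlaps an annotated exon and is not printed, holds 1 ACGTG, 2 GCGTG, 2 TGACG and 1 TGANTCA match. Of 32841 mouse promoter windows of this length, 16.6% hold ACGTG, 28.2% GCGTG and 17.8% TGACG. The full cAMP response element TGACGTCA (1.55% of windows), the EGR site GCGTGGGCG (0.536%), the CArG box (1.47%) and the NF-kB consensus (3.90%) were not matched in any of the 4 windows, and TGANTCA, the AP-1 site (6.75%), was matched in the second Hilpda window alone. These matches are letters in a window and describe no binding.

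Brain libraries held 1143 to 5121 cells and blood libraries 2360 to 6328. Neutrophils, taken from the authors' type codes (Gran in brain, Neu in blood), numbered 517, 350 and 363 cells over the young brain groups of sham, day 2 and day 14, and 5451, 8813 and 2922 over the blood groups. A single young brain library gave 29 to 169 of them. Their median counts per cell were 433, 442 and 323 in brain and 575, 518 and 391 in blood, so levels were read from counts summed over the neutrophils of a library and given as CPM (counts of the gene per 1000000 counts of those cells). In 5 young brain libraries (sham 1, day 2 numbers 1 and 2, day 14 numbers 1 and 2) no cell reached 10% mitochondrial counts, unlike in the other libraries. Of 106624 cell barcodes, 345 occurred in more than 1 library, with at most 7 shared by any pair. A list of 10 neutrophil markers summed to a median of 277032 CPM in brain sham Gran cells, 173395 at day 2 and 68329 at day 14 (range 58918 to 78827), against 228936 in blood sham. All 10 markers were detected in sham and at day 2, but Ly6g, a surface marker of mature neutrophils, was at 795 CPM in sham, 236 at day 2 and 0 at day 14. The eosinophil list had medians of 17.5, 77.1 and 60.2 CPM, and it reached 726 CPM in 1 day 14 library. Of its genes, Epx, Prg2 and Ear1 were at 0 in each young brain group and Siglecf had counts in each. Ccr3, Alox15 and Il5ra were at 0 in sham and at day 2 but had counts at day 14, and Ear2 was at 0 at day 14 alone. Monocyte markers summed to medians of 8438, 3736 and 2175 CPM and microglial markers to 188, 326 and 535 CPM. Lists for T, B, NK, dendritic and endothelial cells, platelets, red cells and basophils stayed at or below 229 CPM in every young brain library. The part that any of these differences plays in the levels below was not tested.

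In neutrophils, Nr4a1 was present in every young brain library and at most 44.8 CPM in any blood library. In brain its level was 150.2, 102.5, 88.4 and 73.3 CPM in the 4 sham libraries (103.6 ± 33.3, SD, n = 4). At day 2 it was 303.8, 350.3, 245.9 and 604 CPM (376 ± 158, n = 4), and at day 14 it was 1443, 1455, 1033 and 749.7 CPM (1170 ± 342, n = 4). The 3 brain groups did not overlap, and the order was sham, day 2, day 14. In blood neutrophils Nr4a1 stood at 1.25, 0, 3.5 and 16.1 CPM in sham, at 1.31, 9.56, 0 and 1.29 CPM at day 2, and at 17.3, 5.30 and 44.8 CPM at day 14. The highest blood value was below the lowest young brain value.

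Dusp2 was read at 16.6, 25.1, 15.8 and 37.9 CPM in brain sham neutrophils (23.8 ± 10.3, n = 4). It stood at 153.3, 316.8, 184.6 and 296.4 CPM at day 2 (238 ± 80.9, n = 4) and at 407.5, 616.5, 423.7 and 458.8 CPM at day 14 (477 ± 95.7, n = 4). Again the 3 brain groups were separate, in the same order as for Nr4a1. In blood neutrophils Dusp2 had no count in any of the 8 sham and day 2 libraries, and at day 14 its levels were 3.86, 0 and 0 CPM.

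Hilpda was at 16.7, 109.9, 62.1 and 19.3 CPM in brain sham neutrophils (52.0 ± 43.9, n = 4), 415.9, 361.9, 216.1 and 251.9 CPM at day 2 (312 ± 93.2, n = 4), and 94.7, 312.1, 205.9 and 101.5 CPM at day 14 (179 ± 103, n = 4). The highest mean was thus at day 2, and the day 14 libraries overlapped both other groups. Blood neutrophils had 0.385, 1.40, 0 and 0 CPM of Hilpda in sham, 0.149, 0, 0 and 2.52 CPM at day 2, and 0, 0 and 3.51 CPM at day 14.

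**Figure D1:**
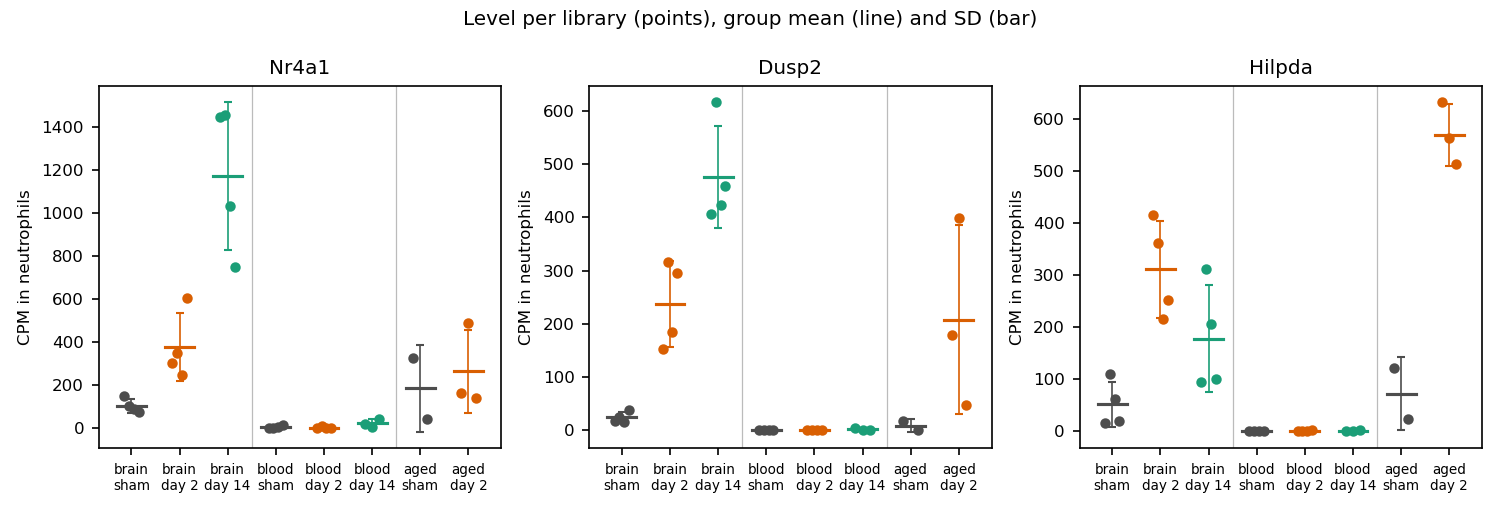
Levels of Nr4a1, Dusp2 and Hilpda in neutrophils, in CPM on a linear axis. Each point is 1 library, the line is the group mean and the bar its SD; young brain values stand above blood values for every gene, Nr4a1 and Dusp2 are highest at day 14 in young brain, and the mean of Hilpda is highest at day 2.

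The first comparison was between brain and blood neutrophils. At day 2, the contrast that chose the genes, Dusp2, Hilpda and Nr4a1 ranked 1, 7 and 10 by log2 fold change among 2736 genes, of which 12.4% were called (edgeR's quasi-likelihood test, Benjamini-Hochberg adjusted p under 0.05). This contrast is given as a description only. Fold changes from edgeR are scaled by TMM and need not equal ratios of CPM. The ratio of pooled counts was 218 for Nr4a1 (95% counting interval 118 to 438) and 267 for Hilpda (115 to 762), and Dusp2 was at least 493-fold higher in brain, taking 3 counts over the blood group as the floor. Here and below, pooled ratios use counts rounded to whole numbers, which moves a ratio where the lower group holds only a few. The sham and day 14 libraries were not used for the choice, and in both groups all 3 genes were called higher in brain, where 5.08% of genes were called in sham and 21.3% at day 14. With only the compared groups in the fit, Dusp2 and Hilpda in sham and Hilpda at day 14 did not pass the filter on low counts. They entered these tests through the other groups of the fit, which include the day 2 groups that chose the genes. In sham, the log2 fold change of Nr4a1 was 5.07 ± 0.69 (SE, adjusted p 6.11e-06). Dusp2 was at least 33.6-fold higher (adjusted p 0.000151), from 6.9 counts in brain and none in blood. For Hilpda the pooled ratio was 137 (33.0 to 1210, adjusted p 1.28e-05), from 18.7 counts in brain and 1.7 in blood. At day 14, Nr4a1 differed by 5.83 ± 0.54 on the log2 scale (adjusted p 8.63e-10). Dusp2 had a pooled ratio of 287 (76.5 to 2412, adjusted p 1.53e-09) and Hilpda one of 223 (36.9 to 9117, adjusted p 2.31e-06), with 0.75 counts in blood rounded to 1. No young brain library overlapped a blood library for any member in either group. The exact permutation test gave p = 0.0286, the smallest it allows, except for Hilpda at day 14 (p = 0.0857). Intervals and floors cover counting error only, and p-values measure the spread between libraries, which the labels list as separate samples without naming separate cohorts.

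Whether the tissue difference itself differed between day 14 and sham was tested as an interaction. The estimates were 0.76 ± 1.07 for Nr4a1 (adjusted p 0.773), 1.15 ± 1.39 for Dusp2 (0.740) and 0.77 ± 2.41 for Hilpda (0.917), all in log2 units. No member passed, where 3.4% of genes did, and with few counts in blood the standard errors were as wide as or wider than the estimates. When values were rounded up per cell instead of summed and then rounded, the Dusp2 estimate turned to -0.45 (adjusted p 0.652).

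**Figure D2:**
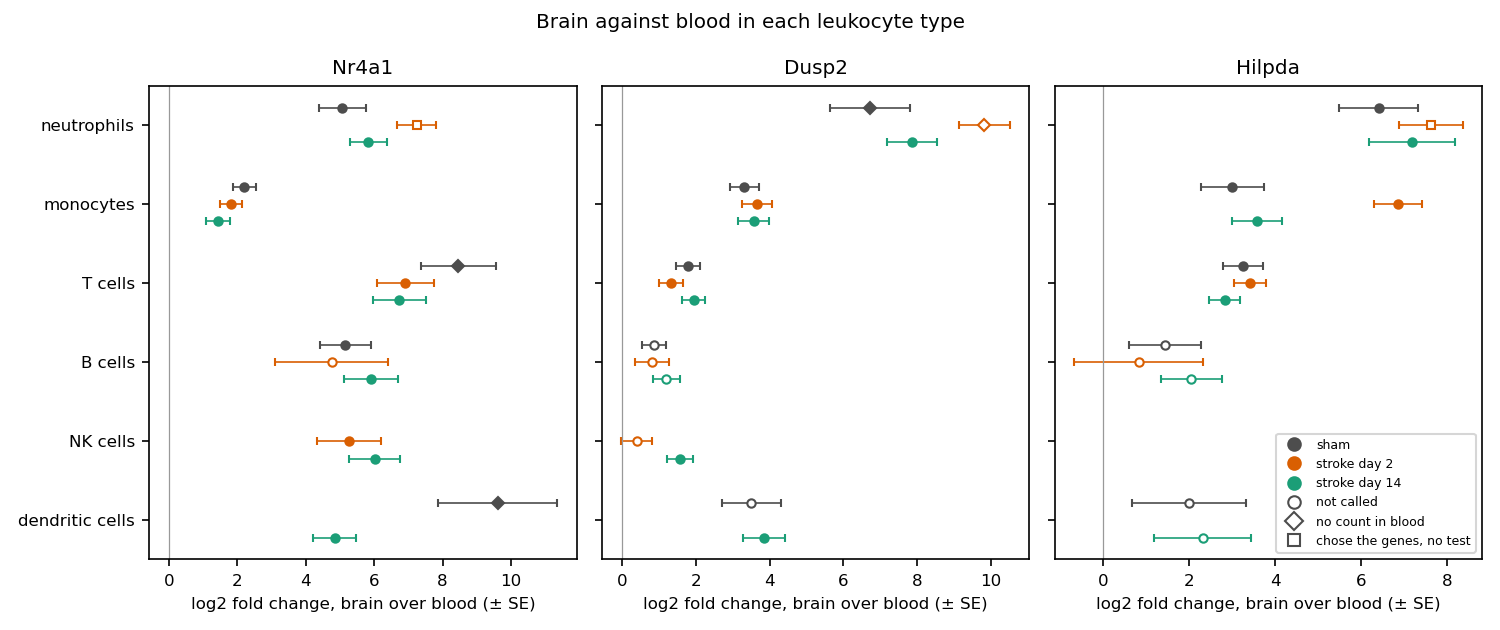
Log2 fold change of brain over blood (edgeR, ± SE) for each gene in 6 leukocyte types, for sham, stroke day 2 and stroke day 14. Diamonds have no count in blood, so that their place depends on the prior count. Squares mark the contrast that chose the genes (neutrophils, stroke day 2), except for Dusp2, whose symbol there is a diamond. Symbols of that contrast are open because it is given without a test, and other open symbols were not called. Every tested difference lies above 0.

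Within the brain, Nr4a1 and Dusp2 rose from sham to day 2, and both were higher than in sham at day 14. Day 2 libraries also entered the choice of the genes, so the comparisons with day 2 are not independent of it. Nr4a1 rose by 1.80 ± 0.50 on the log2 scale at day 2 (adjusted p 0.0372) and by 2.90 ± 0.48 at day 14 (adjusted p 4.73e-05). Dusp2 rose by 3.10 ± 0.58 (adjusted p 0.0020) and 3.76 ± 0.56 (adjusted p 2.78e-05). For Hilpda the day 2 difference of 2.00 ± 0.62 was not called (adjusted p 0.0679), although its 4 stroke libraries lay above all sham libraries, and at day 14 it was 1.00 ± 0.67 (adjusted p 0.328). By background, 3.65% of all genes were called at day 2 and 18.3% at day 14. The exact permutation p was 0.0286 for all 3 genes at day 2 and for Nr4a1 and Dusp2 at day 14, and 0.0857 for Hilpda at day 14. Between day 2 and day 14, where 3.22% of genes were called, no member was: Nr4a1 differed by 1.10 ± 0.42 (adjusted p 0.148), Dusp2 by 0.66 ± 0.43 (0.476) and Hilpda by -1.0 ± 0.61 (0.429). The 2 sets of libraries did not overlap for Nr4a1 or Dusp2. Without the day 2 library with 604 CPM the Nr4a1 change at day 2 was 1.12 (adjusted p 0.306), and the call was also lost without sham 2, 3 or 4 (adjusted p 0.103, 0.114 and 0.125) and with DESeq2 (0.0558). The replicate number as a block lost it too (1.67, adjusted p 0.0787), as did at least 50 cells per library. With only the compared groups in the fit, Dusp2 did not pass the filter on low counts at day 2. The Hilpda change at day 2 was called by DESeq2 (2.05, adjusted p 0.0174) and without sham 2 (2.87, adjusted p 0.0439). The 5 libraries with low mitochondrial counts hold only 1 or 2 libraries of a group and were not tested by themselves. With them as a batch term the day 2 changes of Nr4a1, Dusp2 and Hilpda were 1.81, 3.17 and 2.09 and the day 14 changes 2.92, 3.84 and 1.05. Without them the changes were 2.33 (adjusted p 0.0497), 3.22 (0.0228) and 1.68 (0.253) at day 2 and 3.02 (0.00207), 3.75 (0.00154) and 0.88 (0.529) at day 14.

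In blood neutrophils no change was called for any member. Dusp2 had no count there in sham or at day 2 and a mean of 1.28 CPM at day 14. It and Hilpda had too few counts in blood for a change to be read, so this result bears on Nr4a1 alone. With only the compared blood groups in the fit, Nr4a1 did not pass the filter on low counts either. It entered these tests through the other groups of the fit, which include the brain groups, where its level was higher. At day 2, edgeR called 0% of genes (80 genes were under 0.05 before adjustment, and DESeq2 called 0), and Nr4a1 differed from sham by -0.37 ± 0.79 on the log2 scale. At day 14, where 5.37% of genes were called, Nr4a1 was at 22.5 ± 20.3 CPM against 5.21 ± 7.40 in sham, a difference of 2.15 ± 0.74 (adjusted p 0.0886) with overlapping libraries. DESeq2 gave 2.24 (adjusted p 0.039), and leaving out single libraries moved the adjusted p between 0.0246 and 0.534. The group means of Hilpda in blood were 0.446, 0.668 and 1.17 CPM.

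Pooled over the libraries of a group, the share of brain neutrophils in which Nr4a1 or Dusp2 was detected was likewise lowest in sham and highest at day 14. Intervals and upper limits of shares treat the pooled cells as independent and leave out the spread between libraries. Nr4a1 was seen in 28 of 517 brain cells in sham (5.42%, exact 95% interval 3.63 to 7.73), in 65 of 350 at day 2 (18.6%, 14.6 to 23) and in 109 of 363 at day 14 (30.0%, 25.4 to 35). Single libraries ranged from 3.25% to 8.43% in sham, from 9.43% to 26.4% at day 2 and from 18.1% to 37.9% at day 14. The day 2 and day 14 libraries thus overlapped. After each cell was thinned to 300 counts, which left 368, 258 and 240 cells, the shares were 2.72%, 14.0% and 25.8%; without day 2 library 4 the day 2 share was 7.87% after thinning and 12.9% before it. Microglia, which had the lowest mean Nr4a1 level among brain types with at least 500 cells in the group, had 0.970%, 0.908% and 3.59% after the same thinning (1.72%, 5.53% and 9.90% before it, at median depths of 437, 661 and 1266 counts). The neutrophil shares thus stood above the microglial ones in each group, with and without thinning. Dusp2 was seen in 1.16%, 9.71% and 13.5% of brain neutrophils, or 0.815% (3 cells, and 1 cell or 0.442% without sham library 2), 8.53% and 10.8% after thinning. Endothelium, the lowest for Dusp2 by the same rule, had thinned shares of 0.629%, 0.665% and 0.594%, so the sham share of Dusp2 was close to that of endothelium and the stroke shares were above it. The smaller code MC had no Dusp2 count in sham, in 41 thinned cells, which allows a share of up to 7.32%. Hilpda was seen in 3.29%, 6.86% and 5.23%, or 2.17%, 5.04% and 6.67% after thinning, against 0.421% in microglia in sham, 1.09% in endothelium at day 2 and 0.420% in dendritic cells at day 14. The order of its day 2 and day 14 shares rests on single libraries: without day 14 library 3 the day 14 share was 3.33%, or 4.59% after thinning, and without sham library 2 the sham share was 1.44%, or 0.885%. In blood, Nr4a1 was detected in 0.183%, 0.136% and 0.753% of neutrophils. Dusp2 was in 0 of 5451 blood neutrophils in sham, which allows a share of up to 0.0550%, in 0 of 8813 at day 2, which allows up to 0.0340%, and in 0.0342% at day 14; these limits are on cells with a count, not on cells that express the gene. Hilpda shares in blood were 0.0367%, 0.0567% and 0.0342%.

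The authors divided brain neutrophils into 6 clusters, Gran1 to Gran6, and the 3 genes were unevenly spread over them. Clusters were made from the same cells, so these values are a description. Gran1 (567 cells) held 82.6% of sham neutrophils, 35.4% at day 2 and 4.41% at day 14, while Gran2 (393 cells) held 2.71%, 48.3% and 57.9%. Gran3 (122 cells) held 0%, 8.29% and 25.6%. Pooled over groups, Nr4a1 was at 138 CPM in Gran1, 907 in Gran2, 960 in Gran3 and 552 in Gran5 (61 cells). Dusp2 was at 32.7 CPM in Gran1, 534 in Gran2 and 351 in Gran3. Within day 2 alone, Nr4a1 was at 215 CPM in Gran1, 710 in Gran2 and 262 in Gran3, and Dusp2 at 27.4, 544 and 354. The highest Hilpda level was in Gran3 (797 CPM, against 64.8 in Gran1 and 180 in Gran2), and there it was 1961 CPM at day 2, from 29 cells, and 528 at day 14, from 93 cells. Within Gran2, Hilpda was at 365 CPM at day 2 and 39.4 at day 14, and Dusp2 was at 544 and 562. Nr4a1 within Gran1 was at 94.1, 215 and 544 CPM in sham, at day 2 and at day 14, the last from 16 cells. Within Gran2 Nr4a1 was at 586 CPM in sham, from 14 cells, 710 at day 2 and 1081 at day 14. In Gran3 it was at 262 CPM at day 2 and 1122 at day 14. Gran4, 64 cells found mostly in sham, had no count of Dusp2 or Hilpda and 95.1 CPM of Nr4a1. In blood, cluster Neu3 held 72.2% of day 14 neutrophils and 16.1 counts of Nr4a1 in that group (19.2 CPM), while Neu1 had 65.9 CPM there from 2.6 counts. In sham and at day 2 Nr4a1 was at 7.94 and 3.0 CPM in Neu3 and at 4.75 and 2.84 in Neu1. All Dusp2 counts of blood neutrophils were in Neu3, but these were only 1.87 counts, from day 14 library 1, where the gene was detected in 1 of 1306 neutrophils.

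The tissue difference was not limited to neutrophils. Over the 15 brain-blood comparisons other than the one that chose the genes (neutrophils, monocytes, T, B, NK and dendritic cells), Nr4a1 was called higher in brain in 14 of 15, Dusp2 in 10 of 15 and Hilpda in 8 of the 13 in which it could be tested. All 43 log2 fold changes were above 0. In neutrophils, 1225 of all 2736 genes tested lay above 0 in sham and 1204 at day 14. Over the 15 comparisons the median of all genes lay between -1.06 (B cells at day 2) and 0.20 (dendritic cells in sham). These comparisons share libraries and are not independent of each other, and those at day 2 use other cells of the libraries that chose the genes. The counts of calls include members that entered a test only through other groups of the fit. Among them are the neutrophil values named above and Hilpda in sham monocytes and sham T cells. Brain monocyte-derived cells (MdC) were compared with blood monocytes (Mo), and all 3 genes were called higher in brain in each group, where 2.45%, 26.4% and 16.4% of genes were called in sham, at day 2 and at day 14. In sham, Nr4a1 was at 1272, 848.5, 994 and 577 CPM in MdC and at 288.5, 146.3, 115.9 and 184.2 CPM in Mo, a log2 fold change of 2.21 ± 0.33 (adjusted p 0.000178). It was 1.82 ± 0.32 at day 2 (503 ± 130 against 182 ± 81.1 CPM) and 1.44 ± 0.34 at day 14 (549 ± 69.2 against 237 ± 38.4 CPM, adjusted p 0.0039). Blood monocytes thus carried Nr4a1 at levels that blood neutrophils did not reach. Dusp2 differed by 3.32 ± 0.40, 3.66 ± 0.40 and 3.57 ± 0.42 in the 3 groups, for instance 362 ± 95.4 against 46.0 ± 45.4 CPM at day 2. Hilpda differed by 6.85 ± 0.56 at day 2 (adjusted p 5.75e-09), from 257.9, 324.1, 542.6 and 378.3 CPM in MdC and 7.13, 8.48, 0 and 1.78 CPM in Mo. In sham the Hilpda difference was 3.0 ± 0.73 (adjusted p 0.0223) with overlapping libraries, and it was not called without brain sham 2 or 4 or blood sham 4, or with at least 50 cells per library. This difference gave no value with only the compared groups in the fit, where Hilpda did not pass the filter on low counts. At day 14 it was 3.58 ± 0.58 (54.1 ± 8.75 against 4.37 ± 2.39 CPM).

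Lymphoid and dendritic cells gave the same direction. T cells from brain and blood differed in 3.75%, 6.57% and 7.14% of genes, and all 3 members were called higher in brain in each group. Nr4a1 had no count in T cells of any blood sham library and was at 135.8, 475.2, 185.5 and 125.6 CPM in brain sham, at least 116-fold higher (adjusted p 7.84e-05). At day 2 the pooled ratio of Nr4a1 in T cells was 188 (49.1 to 1597) and at day 14 also 188 (51.2 to 1569). Dusp2 was present in T cells of both tissues, and its log2 differences were 1.80 ± 0.32, 1.33 ± 0.33 and 1.94 ± 0.31, the second not called without brain day 2 library 3 (adjusted p 0.178) or without the filter on low counts (0.0828). Hilpda differed by 3.25 ± 0.46, 3.41 ± 0.38 and 2.82 ± 0.36 in T cells. In sham it did not pass the filter on low counts with only the compared groups in the fit, and entered the test through the other groups. In B cells, Nr4a1 was called in sham (5.16 ± 0.74, where 1% of genes were called) and at day 14 (5.91 ± 0.79, where 0.466% were, a call lost without brain library 3, adjusted p 0.203). At day 2 only 2 brain libraries had enough B cells, edgeR called 0% of genes (1011 were under 0.05 before adjustment, and DESeq2 called 38), and the Nr4a1 estimate of 4.77 ± 1.65 turned to -3.29 without day 2 library 1. Dusp2 was not called in B cells (0.86 ± 0.33, 0.81 ± 0.46 and 1.21 ± 0.37), where the median of all genes stood at -0.54, -1.06 and -0.45. It was called in sham with DESeq2 (adjusted p 0.0236) and without blood sham 1 (0.0268), and at day 14 with DESeq2 (0.0033) and without TMM (0.0326). NK cells had enough cells for a test at day 2 (1.34% of genes called) and day 14 (3.04%). Their Nr4a1 ratios were 48.5 (7.18 to 2074, adjusted p 0.00413, and 0.0591 without brain library 1) and 108 (18.8 to 4324, adjusted p 9.75e-05). Dusp2 was high in NK cells of both tissues, at 1354 ± 126 against 1001 ± 454 CPM at day 2 (not called, adjusted p 0.683) and 1242 ± 92.8 against 451 ± 65.5 CPM at day 14 (1.57 ± 0.36, adjusted p 0.0149), a call lost without any single blood library (adjusted p up to 0.0859). For dendritic cells, 0.485% of genes were called in sham and 6.66% at day 14. There Nr4a1 was at least 9.42-fold higher in brain in sham (adjusted p 0.0214), a call lost without either blood library, and differed by 4.85 ± 0.62 at day 14. Dusp2 in dendritic cells differed by 3.5 ± 0.80 in sham (not called, adjusted p 0.0593) and 3.84 ± 0.57 at day 14, and Hilpda was not called in either group. The sham difference of Dusp2 was called with DESeq2 (0.0289), without the filter on low counts (0.00795), with the replicate number as a block (0.0373) and with only the compared groups in the fit (0.0441).

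Changes over time were also read in the other brain types. In monocyte-derived cells Hilpda was at 8.88, 133.5, 24.5 and 148.9 CPM in sham, rose by 3.02 ± 0.55 at day 2 (adjusted p 0.0043, 6.71% of genes called) and fell by 2.85 ± 0.42 from day 2 to day 14 (adjusted p 0.0033, 1.79% called). At day 14 it stood at 53.1, 43.4, 55.1 and 64.8 CPM, 0.17 ± 0.60 from sham (adjusted p 0.958, 5.15% called). By median over sham, day 2 and day 14, Hilpda was highest at day 2 in neutrophils and monocyte-derived cells. So it was in T cells (188, 346 and 99.8 CPM), border-associated macrophages (24.0, 107 and 31.5), microglia (13.9, 35.2 and 26.9) and endothelium (26.4, 35.9 and 15.6). In dendritic cells it was highest in sham and in B cells at day 14. The fall to day 14 was called in monocyte-derived cells and not in neutrophils, and the difference between these types was not tested. Nr4a1 in monocyte-derived cells was not called at either time (-0.44 ± 0.31 and -0.37 ± 0.31 against sham), nor was Dusp2 (0.05 ± 0.27 and 0.22 ± 0.27). In microglia, where 31.4% of genes were called at day 2 and 15.2% at day 14, Hilpda rose by 1.59 ± 0.48 (adjusted p 0.0241) and 1.54 ± 0.45 (adjusted p 0.0350), from 14.3 ± 2.52 CPM in sham to 64.7 ± 70.3 and 29.3 ± 13.9. The day 2 mean rests on 1 library with 168.4 CPM beside 22.1, 20.1 and 48.4, and the calls were lost in 4 and 6 of the 8 fits that left out a library; the day 14 call was also lost without TMM (adjusted p 0.076) and without the top 5% of doublet scores (0.0576). Nr4a1 and Dusp2 were not called in microglia, and 1 day 14 library had 402.4 CPM of Nr4a1 beside 5.15, 47.0 and 75.1. Without the library with 5.15 CPM the day 14 difference of Nr4a1 was called (2.74, adjusted p 0.0258), and leaving out single libraries moved it between 0.70 and 2.83. Endothelial cells (13.3% of genes called at day 2, and 0% at day 14, with 356 genes under 0.05 before adjustment and 9 called by DESeq2) had no call for Nr4a1 or Hilpda, and Dusp2 was too low there to be tested. In dendritic cells, with 1.01%, 1.53% and 0.893% of genes called at day 2, at day 14 and between the 2 times, no member was called, the nearest being Hilpda between day 14 and day 2 (-1.79 ± 0.44, adjusted p 0.0683). That fall was called with DESeq2 (adjusted p 0.0202), with the replicate number as a block (0.0330), with the mitochondrial batch as a term (0.0267) and with only the compared groups in the fit (0.0342).

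**Figure D3:**
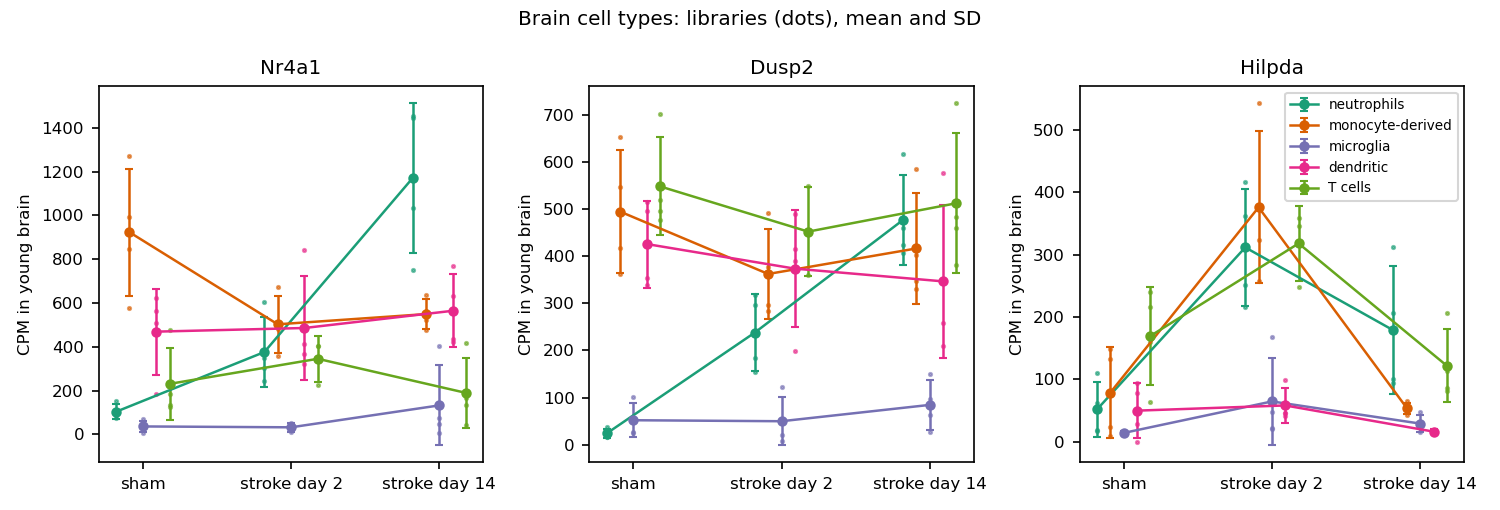
Levels in 5 types of young brain cells (Gran, neutrophils; MdC, monocyte-derived; Mg, microglia; DC, dendritic; T cells), in CPM with mean, SD and a dot per library. Nr4a1 and Dusp2 of neutrophils start below those of monocyte-derived cells in sham, and Hilpda has its highest day 2 means in neutrophils, monocyte-derived cells and T cells.

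Neutrophils were next set against the other myeloid cells of the same libraries, with the library as a block. The day 2 neutrophils also entered the choice of the genes, so the day 2 comparisons here are not independent of it. In sham, Nr4a1 and Dusp2 were lower in neutrophils than in monocyte-derived cells, by -2.62 ± 0.53 (adjusted p 0.00017) and -3.85 ± 0.61 (adjusted p 2.2e-06) in log2 units, with no overlap of libraries. The median of all genes in this comparison was -0.52, and 18.8% of genes were called. At day 2 (30.7% of genes called, median -1.04) the differences were -0.77 ± 0.44 and -0.95 ± 0.38 and were not called. Without the filter on low counts both were (-1.01, adjusted p 0.00974, and -1.19, adjusted p 0.00233), and Dusp2 was also called with at least 50 cells per library (0.0179) and without day 2 library 2 (0.0438) or 4 (0.0146). At day 14 (28.8%, median -1.0) they were 0.27 ± 0.40 and -0.41 ± 0.35 and were not called either. By CPM, Nr4a1 of neutrophils stood above that of monocyte-derived cells in all day 14 libraries (749.7 and higher against 638.4 and lower). Hilpda differed by 0.54 ± 0.65 in sham (adjusted p 0.595), -0.80 ± 0.31 at day 2 (adjusted p 0.0406) and 1.05 ± 0.43 at day 14 (adjusted p 0.0596, but 0.0147 without TMM and 0.0426 with values rounded up per cell). The day 2 call of Hilpda had overlapping libraries and was lost with DESeq2 (-0.24, adjusted p 0.78), without TMM (0.215), without the library block (0.248) and without day 2 library 3 (0.151) or 4 (0.0832). Against microglia, where 49%, 41.5% and 39.1% of genes were called with medians of -1.18, -1.19 and -1.13, Nr4a1 was higher in neutrophils in each group (2.04 ± 0.61, 3.74 ± 0.54 and 2.98 ± 0.43). Dusp2 was not called in sham (-0.58 ± 0.73) and was higher in neutrophils at day 2 (2.86 ± 0.47) and day 14 (1.94 ± 0.37). Hilpda was higher in neutrophils in each group (2.53 ± 0.56, 2.75 ± 0.39 and 1.84 ± 0.45), although its sham call was lost without sham 2 (adjusted p 0.131) and its day 14 call without day 14 library 3 (0.0679).

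Ordered by median CPM among 9 young brain types (types with at least 2 libraries of 20 cells in a group), neutrophils stood 7th for Nr4a1 in sham, 4th at day 2 and 1st at day 14 (medians 95.4, 327 and 1238 CPM). At day 14 the next type was border-associated macrophages, whose libraries ranged from 0 to 1084 CPM and overlapped. For Dusp2 neutrophils were 7th, 6th and 4th, and NK cells were 1st at day 2 and day 14 (medians 1354 and 1272 CPM). For Hilpda they were 4th, 3rd and 1st. Most neighbours in these orders overlapped, 8, 8 and 7 of 8 pairs for Nr4a1, 6, 6 and 7 for Dusp2 and 8, 7 and 7 for Hilpda, so single ranks are loose. In blood, by the same rule, neutrophils had the lowest median of Dusp2 and of Hilpda in sham and at day 2. Types with a single such library were also at 0 (the codes UC and pre in sham for both genes, and dendritic cells at day 2 for Hilpda). At day 14 their median of 0 was shared by the eosinophil and basophil code (Eos.Bas) for both genes and by dendritic cells for Hilpda. They were 3rd for Nr4a1, behind monocytes with medians of 165, 173 and 237 CPM.

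**Figure D4:**
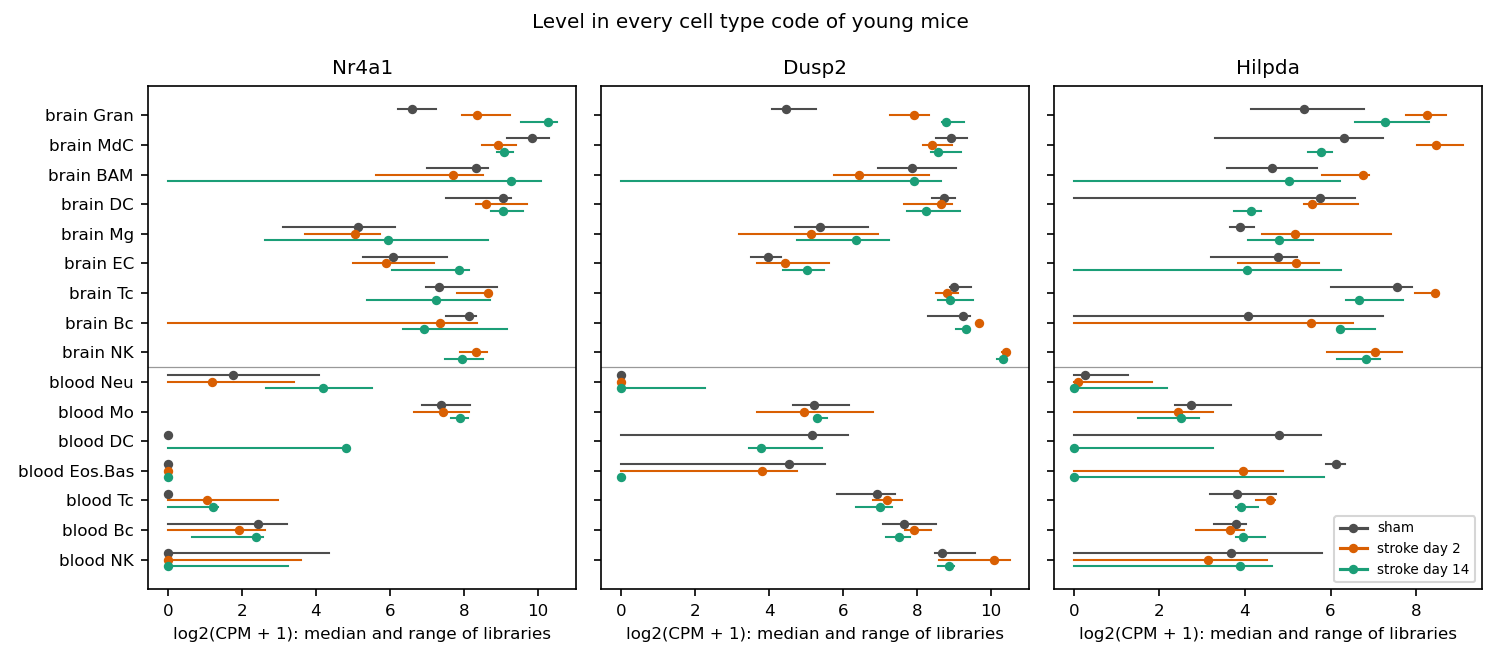
Levels of the 3 genes in the type codes of young brain and blood with at least 2 libraries in a group, as log2(CPM + 1), with the median and the range of the libraries in each group. Of these types, blood neutrophils have the lowest median of Dusp2 and Hilpda in sham and at day 2 and share a median of 0 with other types at day 14, and brain neutrophils are among the upper types at day 14.

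Aged brain neutrophils numbered 31 and 45 in the sham libraries, 70, 101 and 33 at day 2 and 21 at day 14. Hilpda was at 121.8 CPM in the male and 23.0 in the female sham library, and at 632.6 (male), 564.7 and 513.5 CPM (females) at day 2. It rose by 2.60 ± 0.71 on the log2 scale (adjusted p 0.0490, 3.14% of genes called), with the exact permutation p at its smallest value of 0.1. That call was lost without any single one of the 5 libraries (adjusted p 0.0578 to 0.363), with DESeq2 (0.0599), without the filter on low counts (0.13), without the top 5% of doublet scores (0.0866) and with only the compared groups in the fit (0.0528). Dusp2 was at 16.6 and 0 CPM in aged sham and at 177.9, 398.5 and 46.6 CPM at day 2, from 0.54 and 39.3 counts, a difference that was not called (adjusted p 0.0929, but 0.0474 without TMM and 0.0495 without the female library with 46.6 CPM). Nr4a1 was at 326.7 and 41.9 CPM in sham and at 164.4, 486.3 and 139.8 CPM at day 2 (0.32 ± 0.73, adjusted p 0.889, and between -0.54 and 2.86 with single libraries left out). The 2 aged sham libraries thus differed widely for Nr4a1, and they differ in sex. At day 14 the only aged library had 258.8 CPM of Nr4a1, 172.5 of Dusp2 and 0 of Hilpda, from 21 cells. Between aged and young neutrophils edgeR called 0% of genes at day 2 (109 under 0.05 before adjustment, 1 called by DESeq2) and 0% in sham (60 under 0.05 before adjustment, 0 called by DESeq2). Hilpda was at 570 ± 59.8 CPM in aged and 312 ± 93.2 CPM in young neutrophils at day 2 without overlap (1.02 ± 0.46, adjusted p 0.579, exact permutation p 0.0286, the smallest it allows). It was detected in 60 of 204 aged cells (29.4%, or 15.1% after thinning to 300 counts) against 6.86% of young ones (5.04% after thinning). No share from another aged type was set beside these. The young libraries are all male and the aged day 2 ones are 1 male and 2 females, so age and sex are mixed here. At day 2 the median of Hilpda was also higher in aged than in young monocyte-derived cells (964 against 351 CPM) and dendritic cells (209 against 46.4). The same held for T cells (448 against 346), border-associated macrophages (136 against 107) and microglia (43.4 against 35.2), but not for endothelium (30.2 against 35.9). Nr4a1 differed between the ages by -0.47 ± 0.54 and Dusp2 by 0.00 ± 0.50 at day 2. The young day 2 libraries of these comparisons also entered the choice of the genes.

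Genes of the pathways of the 3 members were then read from lists, beside the share of all genes called. Of 24 other early response genes, the class of Nr4a1, 19 were tested in neutrophils. From sham to day 2 in brain, where 3.65% of all genes were called, 6 rose and none fell (median log2 fold change 0.92, all genes -0.04). At day 14, where 18.3% were, 12 rose and none fell (median 1.51, all genes -0.07), and all 19 were above 0. Egr1, a zinc finger transcription factor, rose by 3.91 ± 0.95 at day 2 and 4.04 at day 14, and Gadd45b, a stress sensor, rose by 2.96 and 4.37. Ier3 (2.10) and Nfkbia, the inhibitor of NF-kB (2.03), rose at day 2, and Atf3, a stress-induced repressor, rose by 3.75 at day 14. Nr4a3, the related orphan receptor, rose from 3.04 ± 6.08 CPM in sham to 193 ± 93.3 CPM at day 14 (adjusted p 0.00757, from 1.4 and 27.2 counts) and had no count in blood at day 14, at least 72.2-fold lower than in brain. Fos, an AP-1 subunit, was not called at either time. Between brain and blood, 2 of the 19 were called higher in sham (Fosb and Nfkbia; 5.08% of all genes called) and 13 at day 14 (21.3% called), and none was called lower in these groups.

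**Figure D5:**
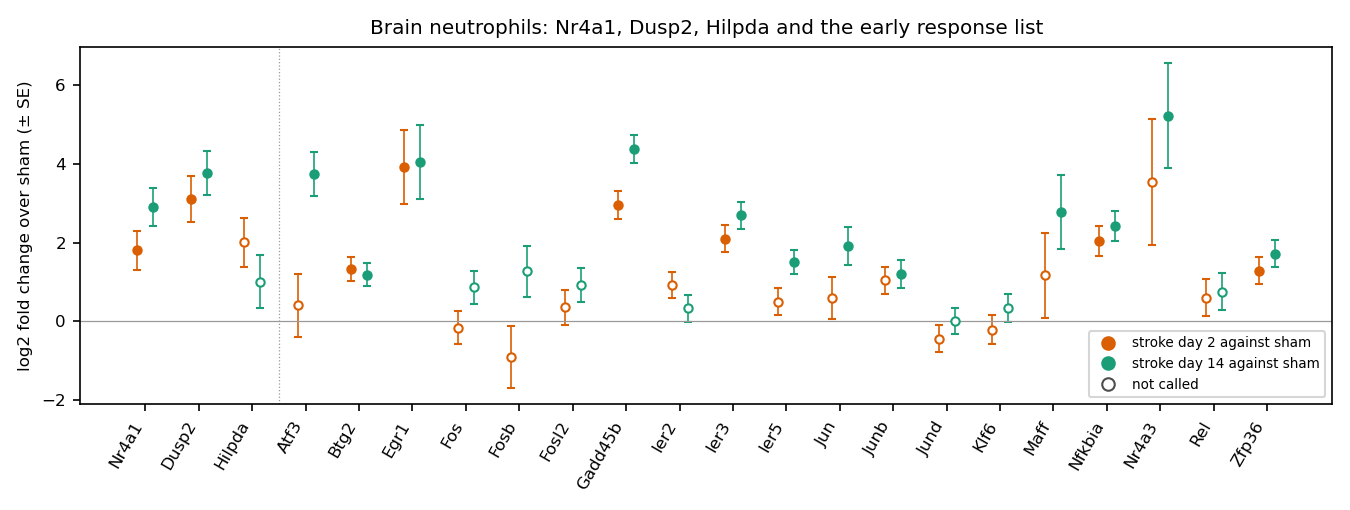
Log2 fold change in brain neutrophils (edgeR, ± SE) at day 2 and day 14 over sham for Nr4a1, Dusp2, Hilpda and the 19 tested early response genes, with open symbols for those not called. At day 14 all 19 lie above 0 and 12 were called.

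The lists that follow are set against the same shares of all genes called in brain neutrophils, 3.65% at day 2 and 18.3% at day 14, with medians of -0.04 and -0.07. Of 9 other MAP kinase phosphatases, the family of Dusp2, 3 were tested (medians 0.73 and 1.25). None was called at day 2, and at day 14 Dusp5 rose by 2.08 ± 0.50 (adjusted p 0.00326) and Dusp1 by 1.25 ± 0.35 (adjusted p 0.0107), while Dusp6 differed by 0.30. Between brain and blood in sham, Dusp5 was higher in brain by 2.04 ± 0.54, and Dusp1, at 770 ± 132 against 1337 ± 294 CPM, was not called (-0.75 ± 0.34). At day 14, Dusp5 was higher in brain than in blood (4.02) and Dusp6 lower (-1.31). Blood sham neutrophils thus held Dusp1 while no Dusp2 was counted in them. Of 20 MAP kinases and their upstream kinases, 10 were tested (medians -0.08 and -0.12), and Map3k8, which activates the ERK pathway, rose at day 2 (214 against 57.6 CPM, 1.86 ± 0.53, adjusted p 0.0419), while Mapk13 fell by 3.12 at day 14. Of 28 other targets of the hypoxia-inducible factors that also regulate Hilpda, 17 were tested. None was called at day 2 (median 0.21), and at day 14 (median 0.28) 1 of the 17, Vegfa, an angiogenic growth factor, rose (226 against 27.3 CPM, 2.5 ± 0.75, adjusted p 0.0186). The glycolytic enzymes Aldoa and Ldha were not called. Of 18 lipid droplet and lipolysis genes, 6 were tested (medians 0.63 and 0.29), and Dgat1, which makes triglycerides, fell by 1.53 at day 2 (adjusted p 0.0144) and by 2.57 at day 14 (adjusted p 4.74e-05); it also fell by 1.22 in blood neutrophils at day 14 (adjusted p 0.0170). G0s2, another inhibitor of ATGL, differed by 0.49 and 0.93 and was not called, but it was higher in brain than in blood in sham (1631 ± 251 against 383 ± 238 CPM, 2.10 ± 0.42). Of 22 genes of neutrophil maturity and tissue state, 20 were tested: 4 rose and 3 fell at day 2, and 8 rose and 8 fell at day 14 (medians -0.35 and -0.80). The chemokines Ccl4 and Ccl3 rose by 5.71 and 4.86 at day 14, Mmp8, a granule collagenase, fell by 4.88, and the granule genes Ngp and Camp were lower at day 2 (Ngp by -4.96, Camp at least 427-fold).

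The genes whose pattern was most like each member were sought over 42 means of tissue, type and group in young mice, among 10057 genes, by Pearson's r of log2(CPM + 1). These points share libraries, and the values are a description. For Nr4a1 they were Map3k8 (r = 0.826), Oas1a (0.803) and Cdkn1a (0.799), for Dusp2 Snhg15 (0.824), Acp5 (0.806) and Traf1 (0.806), and for Hilpda Tnfaip3 (0.786), Ppp1r15a (0.724) and Ifrd1 (0.720). In neutrophils, Map3k8 had means of 57.6, 214 and 136 CPM in brain sham, day 2 and day 14 and of 34.3, 61.9 and 44.9 CPM in blood. Oas1a had 29, 48.8 and 72.1 CPM in brain and 43.0, 25.9 and 24.7 CPM in blood, so its sham mean was lower in brain. Cdkn1a had 86.1, 341 and 463 CPM in brain, with its lowest day 14 library at 0, and at most 6.26 CPM in blood. Ppp1r15a had means of 190, 643 and 1628 CPM in brain sham, day 2 and day 14 and of 12.5, 42.6 and 48.2 CPM in blood. Tnfaip3 had 65.1, 308 and 607 CPM in brain and 1.51, 5.81 and 14.0 CPM in blood, and Ifrd1 had 182, 233 and 793 CPM in brain and 41.4, 38.1 and 30.7 CPM in blood. Snhg15, Acp5 and Traf1 had neutrophil group means of at most 78.1 CPM (Traf1 at day 2 in brain, from 1 library). Among the members, r was 0.439 between Nr4a1 and Dusp2, 0.603 between Nr4a1 and Hilpda and 0.662 between Dusp2 and Hilpda.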

How the data were processed

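The members and gene lists were chosen with earlier results of these data known. The deposited tables hold expected counts per gene and cell that are mostly not whole; how the authors made them fractional is not given in the sources used here. The submitters' processing notes name mm10 and Seurat. The deposited metadata give each cell's total of expected counts, its count of detected genes, its percent of mitochondrial counts and the authors' type codes, which were used as they stand. Genes carry symbols alone.

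Counts were summed per library and type, rounded, and fitted with edgeR 4.0.16 (quasi-likelihood, TMM, filterByExpr, Benjamini-Hochberg over all genes tested), using libraries with at least 20 cells of the type; the neutrophil fit held all 6 young groups. Standard errors follow from the fold change and F. Levels are CPM. Exact permutation tests were two-sided. Floors are 3 counts over a group. Scripts were tested on simulated counts. Alternatives were DESeq2 1.42.0, no filter, no TMM, other cell minima, rounding up, Scrublet (scanpy 1.11.5) doublets out, only the compared groups, the replicate number as a block, and each library left out; the top 5% of doublet scores and the mitochondrial batch were added after seeing the data, since Scrublet's own threshold marked at most 0.225% of a library. Named list genes are up to 4 called per list with the largest change and at least 20 CPM, and up to 2 abundant ones not called; the genes most like a member are the 3 with the highest r. The splits by cluster were chosen after their values were seen.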

Additional observations from a re-analysis of the deposited data

Results flagged for a closer look

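Each member's CPM was searched for a library far from the rest in groups of 4 libraries, for neutrophils and monocytes of both tissues and for microglia. Of 37 such groups with a count of the gene, 2 had one; chance alone would mark about 1 group in 20. In blood neutrophils 2 days after stroke, library 2 had 9.56 CPM of Nr4a1 beside 1.31, 0 and 1.29 in the other libraries. In the same blood group, library 4 had 2.52 CPM of Hilpda beside 0.149, 0 and 0. The Hilpda value comes from 6.0 counts over the whole group, and both values lie below the lowest young brain value of their gene.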

How the results depend on the processing

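The brain-over-blood calls of all 3 members in sham and at day 14, the day 2 and day 14 rises of Dusp2 and the day 14 rise of Nr4a1 in brain neutrophils kept direction and call under each alternative that gave a value and with each library left out. The day 2 libraries also chose the genes, so the day 2 rise of Dusp2 is not independent of that choice under any setting. Fitted with only the compared groups, Dusp2 and Hilpda between tissues in sham, Hilpda between tissues at day 14 and Dusp2 at day 2 in brain gave no value. The same held for Nr4a1 in blood neutrophils at day 2 and day 14 against sham. It also held for Hilpda in brain neutrophils at day 14 against sham and against day 2. In monocytes and T cells, Hilpda between tissues in sham gave no value either. Elsewhere a setting changed a call or a count, and the cause was not tested. Values rounded up per cell gave 6.36 for Nr4a1 and 7.78 for Dusp2 between the tissues at day 2, turned the Dusp2 interaction to -0.45, and gave 2.08 for Hilpda at day 2 in brain and 2.07 for Nr4a1 at day 14 in blood, both then called. DESeq2 gave 1.71 for Nr4a1 at day 2 in brain (call lost), 2.05 for Hilpda at day 2 and 2.24 for Nr4a1 at day 14 in blood (calls gained). The fit with the replicate number as a block gave 1.67 for Nr4a1 at day 2 in brain (adjusted p 0.0787, call lost) and changed no other neutrophil call. Deviations from the group mean had a median r of 0.005 between same-numbered libraries and -0.007 between other numbers (at most 0.452). Same-numbered brain libraries of day 2 and day 14 had r of 0.057, 0.155, 0.230 and 0.142. In blood, sham and day 2 had 0.436, 0.277, -0.163 and -0.095 for numbers 1 to 4. Whether the numbers pair libraries is thus not settled. At least 50 cells per library gave 1.79 for Nr4a1 at day 2 in brain (adjusted p 0.0504). Library size without TMM gave 2.37 for Hilpda at day 2 and 2.59 for Nr4a1 at day 14 in blood, no filter gave 2.10 for the latter, and only the compared groups gave 2.11 for Hilpda at day 2, all called. Without TMM the median of all genes moved by 0.23, 0.50 and 0.26 in the day 2, day 14 and day 14 against day 2 comparisons of brain neutrophils, and called genes went from 57 higher and 43 lower to 108 and 29, from 227 and 273 to 412 and 141, and from 40 and 48 to 66 and 42; the blood day 14 comparison moved by 0.37 (47 and 100 to 112 and 46). In B cells DESeq2 moved that median by 0.50, 1.07 and 0.54 and called Dusp2 in sham and at day 14, Nr4a1 at day 2 and Hilpda at day 14. In the other comparisons a scaling moved the median by between -0.53 and 0.79 (neutrophils against monocyte-derived cells, in sham without TMM and at day 2 with DESeq2). Values that were not called and changed sign under a setting, without being called there, were Nr4a1 in blood at day 2 (0.144 rounded up), Hilpda and Dusp2 in neutrophils against monocyte-derived cells in sham and at day 14 (-0.031 and 0.107 without TMM), Dusp2 in monocyte-derived cells at day 2 (-0.141 by DESeq2, -0.413 without TMM, -0.001 rounded up, -0.045 with only the compared groups) and day 14 (-0.202 without TMM, -0.010 with only the compared groups), Hilpda there at day 14 (-0.226 without TMM, -0.445 without the low mitochondrial libraries, -0.047 with only the compared groups), and Dusp2 between aged and young at day 2 (-0.036 by DESeq2, -0.031 without TMM, -0.046 rounded up, -0.113 without the top 5% of doublet scores, -0.108 with sex as a term, -0.061 with only the compared groups).

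Leaving out 1 library gave 6.58 to 7.88 (Nr4a1), 9.50 to 10.04 (Dusp2) and 6.93 to 9.86 (Hilpda) between tissues at day 2, 1.12 to 1.97 for Nr4a1 and 1.69 to 2.87 for Hilpda at day 2 in brain, 1.45 to 2.74 for Nr4a1 at day 14 in blood, and -3.29 to 5.80 for Nr4a1 in B cells at day 2. Among values not called it gave -0.993 to 0.200 for Nr4a1 at day 2 in blood, -0.538 to 2.856 for Nr4a1 in aged brain, -0.745 to 0.357 for Dusp2 between the ages, -0.011 to 0.407 for Nr4a1 against monocyte-derived cells at day 14, -0.992 to 0.107 for Dusp2 against microglia in sham, and, in monocyte-derived cells, -0.180 to 0.224 and -0.063 to 0.380 for Dusp2 at day 2 and day 14 and -0.475 to 1.207 for Hilpda at day 14. Called genes numbered 139 between tissues in sham (92 to 130 with a library left out, 242 without the filter), 339 at day 2 (757 without the filter, 568 rounded up, 192 without the libraries of low mitochondrial counts, 181 with only the compared groups), 100 from sham to day 2 in brain (43 to 97, and 166 by DESeq2), 500 at day 14 (250 with only the compared groups) and 88 between day 14 and day 2 (16 to 99, 53 with at least 50 cells, 134 with the mitochondrial term, 30 with only the compared groups). In blood they were 0 at day 2 (14 without the filter) and 147 at day 14 (46 to 169 with a library left out, the lowest without sham 1, and 250, 265 and 291 without the filter, without the low mitochondrial libraries and with only the compared groups), and for the interaction 93 (46 to 108 with a library left out, the lowest without blood day 14 library 2, 165 by DESeq2, 144 with the mitochondrial term). At most 6.0 counts of Dusp2 or of Hilpda were seen in blood neutrophils of a group, so fold changes against blood have wide counting intervals.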
